A study of Ictidomys tridecemlineatus with 15 samples.

Results

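Liver genes of the 13-lined ground squirrel (Ictidomys tridecemlineatus) whose nascent transcription signal stayed near its euthermic level while animals entered torpor, and stood apart from it in torpid animals, are described here. They were chosen by their own measured values among 4705 single-gene transcription units. All early torpor (ET) and late torpor (LT) libraries had to lie above, or all below, every summer active (SA), interbout aroused (IBA) and entrance (Ent) library. The torpid mean also had to differ from the Ent mean by 0.8 or more on the log2 scale, a difference called the step below, and the Ent mean had to lie within 0.3 of the mean over the SA and IBA libraries. Members of the higher set numbered 79 (1.68% of single-gene units), and members of the lower set 90 (1.91%). Because these contrasts selected the members, their values are a description and carry no test.

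The study measured transcription in frozen liver of laboratory-housed female squirrels purchased from a breeding colony, staged by body temperature and time. SA animals were homeothermic, sampled ahead of hibernation. The other 4 states came from the hibernation season: IBA animals had rewarmed between bouts of torpor, Ent animals were cooling on their way into torpor, and ET and LT animals were sampled early and late in a torpor bout. Each library came from a different animal, giving 3 libraries per state except in LT, which had 2. A further LT animal, replicate 2, was set aside by the authors as an outlier and was not analysed here.

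In hibernation, long bouts of torpor with low body temperature and strongly reduced metabolism alternate with short spontaneous arousals to high body temperature. The liver carries much of the switch from feeding on carbohydrate to living on stored fat, and it makes most plasma proteins. Global run-on sequencing (GRO-seq) isolates nuclei and lets RNA polymerases already engaged on DNA extend their transcripts with a labelled nucleotide. Reads then show where polymerase stood when the tissue was frozen. The signal thus reflects engaged polymerase rather than the amount of mature RNA, and it was collected under the same in vitro conditions for all states, whatever the temperature of the animal. The authors found polymerase running past gene ends in torpor, and therefore drew gene bodies anew from these data and joined genes that then overlapped. Of their 6324 units, 1619 hold joined genes and were not eligible. Levels are given as CPM, which is 1e6 times the unit's count over the library's total across all units. Before taking log2, 1 CPM was added. Higher, lower and flat therefore mean relative to the other units of the same library. The authors caution that scaling by library size hides shifts in total transcription between states.

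Library totals ran from 3713883 counts (SA replicate 2) to 8884763 counts (SA replicate 3). Every member had at least 10 counts in each library, so no member depended on a filter for low values. SA replicate 2 stood apart from the other SA libraries, with Spearman correlations across units (which are not independent replicates) of 0.901 with SA replicate 1 and 0.909 with SA replicate 3, against 0.944 between those. Without it, 77 units were higher and 92 lower, of which 65 and 72 were among the members. Counts moved more without Ent replicate 2, with 123 higher, and without Ent replicate 3, with 143 lower. The sampling seasons were uneven across states. All ET animals came from a season of their own, the LT and IBA animals each from another, and SA and Ent held animals from the LT season and the IBA season. For ET, season and state cannot be told apart.

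Hepatocyte transcripts marked all libraries as liver. Of 8 hepatocyte markers, 5 had a unit of their own (Apob, Ttr, Fgb, Cps1 and Tf), Apob was the most abundant by mean CPM, and none was a member. Their summed level was 10717, 18863 and 7800.4 CPM in SA, 11821, 7702 and 9457 CPM in IBA, 7075, 6661 and 7486 CPM in Ent, 5477, 3530.3 and 5293 CPM in ET, and 6668 and 4619 CPM in LT. The sum lay lower in every torpid library than in SA and IBA, but LT replicate 1 stood just above Ent replicate 2. Cps1 made up most of the SA replicate 2 value. The markers differed: torpid mean minus Ent mean (log2) was -0.15 for Apob, whose torpid libraries overlapped the others. It was -1.37 for Ttr, -1.19 for Fgb, -0.83 for Cps1 and -0.75 for Tf. Endothelial markers Kdr and Pecam1 (2 of 6 listed) summed to 143, 129.5 and 191 CPM in SA, 156, 165 and 181 CPM in IBA, 183, 159 and 169.9 CPM in Ent, 140.5, 89.4 and 126 CPM in ET, and 74.9 and 97.1 CPM in LT. The cholangiocyte list was represented by Sox9 alone (1 of 5), at 38.2, 29.3 and 24.5 CPM in SA, 15.5, 35.4 and 19.0 CPM in IBA, 45.3, 31.0 and 34.0 CPM in Ent, 18.2, 14.1 and 11.7 CPM in ET, and 10.3 and 7.53 CPM in LT. Lists for Kupffer, stellate, lymphoid and erythroid cells had 0 genes with a unit of their own. Fewer cells of a type and less transcription per cell cannot be told apart in these bulk libraries. The part that the lower endothelial and Sox9 values in torpor play in the lower set was not tested.

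Across libraries the members formed a single step. Relative to the SA and IBA mean, the median of the 79 higher members lay between -0.15 (IBA replicate 1) and 0.24 (Ent replicate 2) in the 9 libraries that were not torpid, and between 1.03 (ET replicate 2) and 1.17 (ET replicate 1) in the 5 torpid ones. The 90 lower members had medians between -0.23 (Ent replicate 3) and 0.14 (IBA replicate 2), then between -1.12 (ET replicate 3) and -1.56 (LT replicate 1). The median step was 0.97 in the higher set, with a range from 0.81 to 2.28, and -1.20 in the lower set, with a range from -3.29 to -0.80, against 0.02 over all single-gene units. Of all 4705, 2412 had a step above 0 (51.3%, and 2218 to 2552 units over 5 ways of scaling the libraries), the background for counts of steps above or below 0 in the gene lists. Higher members together took 0.415% of all counts in IBA replicate 1 and 0.548% in Ent replicate 2, the lowest and highest shares outside torpor, and from 0.985% (ET replicate 3) to 1.13% (ET replicate 1) in torpor. The lower members' share went the other way, from 0.905% to 1.15% outside torpor and from 0.351% to 0.447% in it.

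**Figure D1:**
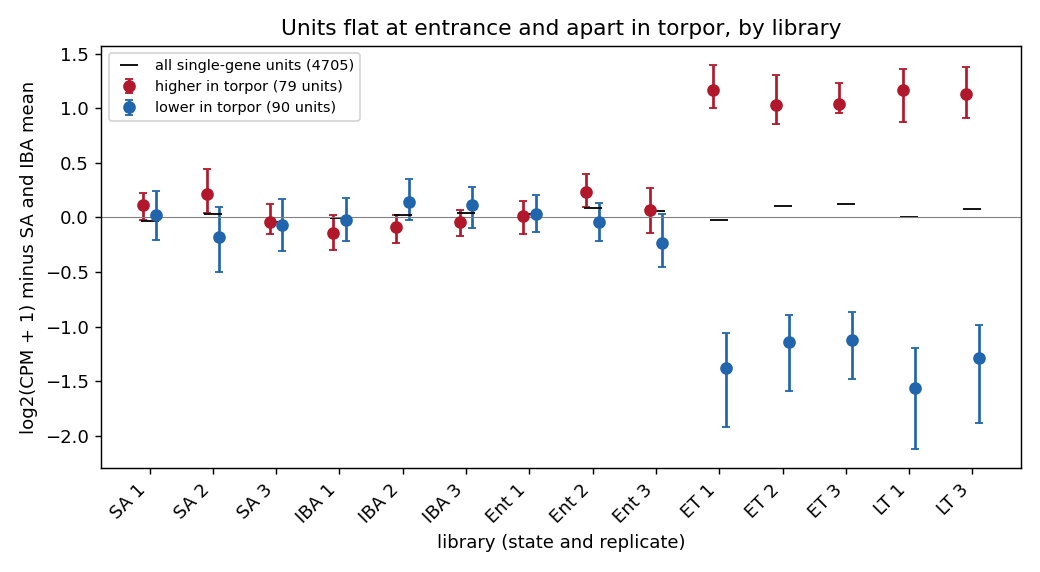
Median of the 79 higher (red) and 90 lower (blue) members in each library, as log2(CPM + 1) minus the unit's mean over SA and IBA libraries, with bars from the lower to the upper quartile over units and black dashes for the median of all 4705 single-gene units. Both sets sit near 0 in SA, IBA and Ent and apart from it in all 5 torpid libraries, as the choice of members requires.

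Most units that separated torpid from other libraries were not flat at entrance or had a small step. Torpid libraries lay above all others in 750 units (15.9%) and below all others in 446 units (9.48%). A step of 0.8 or more was also met by 261 units in the upward and 275 in the downward direction. Ent already differed from SA and IBA the same way by 0.3 or more in 177 and 163 of these, and the other way in 5 and 22. The opposite pattern, a difference of 0.8 or more by Ent with a step under 0.3 and no overlap of SA and IBA with the later states, was held by 43 units upward and 29 downward. Ent flatness is relative to SA and IBA pooled: the Ent mean lay within 0.3 of the SA mean and of the IBA mean taken apart in 42 of the 79 higher and 36 of the 90 lower members, a split added after the data had been seen. In the higher set the median difference of Ent was -0.00 from SA and 0.24 from IBA, and in the lower set -0.01 from SA and -0.14 from IBA.

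**Figure D2:**
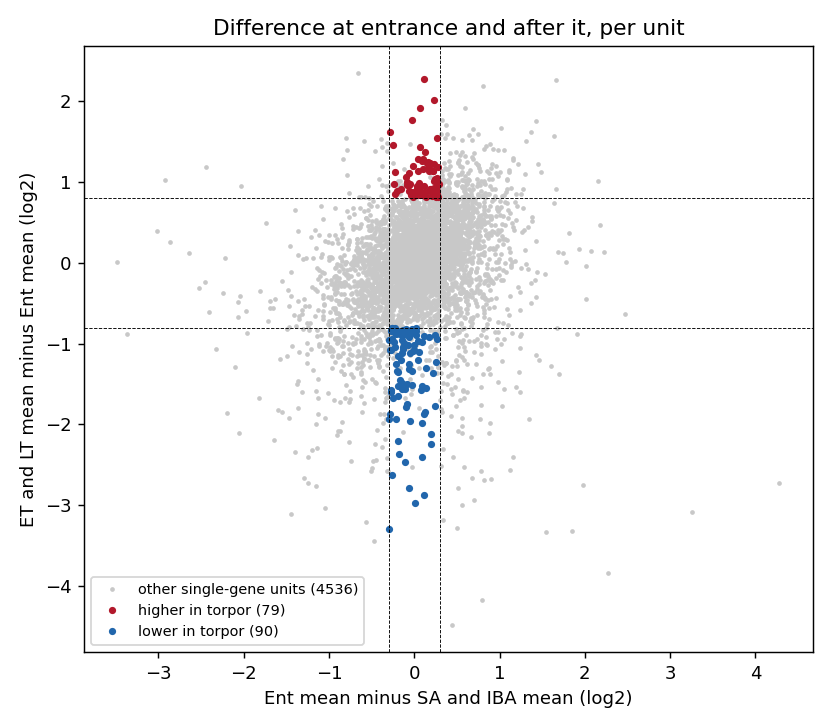
Each dot is a single-gene unit, with the Ent mean minus the SA and IBA mean on the horizontal axis and the mean of ET and LT minus the Ent mean on the vertical axis (both log2); dashed lines mark 0.3 and 0.8, red dots are the 79 higher and blue dots the 90 lower members. Grey dots beyond both horizontal lines inside the middle strip are units whose torpid libraries overlap the others.

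The higher members included genes of the clock and of transcription. Nr1d1 (HiC_Itri_2 Itri7, 21861780 to 21871364, plus strand) encodes REV-ERB alpha, a haem-binding nuclear receptor that represses Bmal1 in the circadian clock, and its unit measured 108, 28.5 and 81.4 CPM in SA, 11.2, 52.2 and 17.1 in IBA, 27.9, 51.1 and 58.6 in Ent, 298, 177 and 148 in ET, and 138 and 176 in LT (step 2.02). Levels outside torpor varied widely, with 2 IBA libraries lowest, and SA replicate 1 was the nearest to the torpid range. Csnk1d, the casein kinase 1 delta that phosphorylates PER proteins, had a step of 1.24. The paralogue of Nr1d1 went the other way: Nr1d2 (Itri2, 182486665 to 182512755, plus strand), which encodes REV-ERB beta, measured 203, 107 and 197 CPM in SA, 120.0, 171 and 128 in IBA, 134, 139.9 and 103 in Ent, 57.3, 80.1 and 62.3 in ET, and 87.3 and 72.6 in LT (step -0.80). Its place was marginal, since it stood at the edge of the step threshold and met the rule under 0 of 4 other ways of scaling the libraries. Of 10 clock genes with a unit, these were the 2 higher members and the 1 lower member, and 8 of 10 had a step above 0 under each of the 5 scalings.

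Csrnp1 (Itri2, 195256072 to 195271031, minus strand), a cysteine- and serine-rich nuclear protein with transcription factor activity, measured 36.4, 76.2 and 41.5 CPM in SA, 15.5, 23.6 and 17.7 in IBA, 31.1, 30.3 and 33.8 in Ent, 246, 119 and 99.3 in ET, and 102 and 93.0 in LT (step 1.92). Ent and IBA were low and tight, SA was intermediate, and ET replicate 1 was far above the rest. Kdm3a, a demethylase of histone H3 lysine 9, and Nelfa, a subunit of the negative elongation factor that holds polymerase II near promoters, had steps of 0.85 and 0.99. They were the only members among 43 chromatin modifiers and 38 genes of polymerase II, Mediator and elongation. The median step of the chromatin list was 0.04 and changed sign with scaling, from -0.01 to 0.07, and 26 of the 38 polymerase genes had a step above 0 (24 to 28 over the scalings).

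Protein folding gave 3 higher members. Hsf2 (Itri8, 112679817 to 112706808, plus strand), a heat shock transcription factor, measured 85.3, 69.2 and 66.6 CPM in SA, 68.5, 68.9 and 81.0 in IBA, 65.9, 77.2 and 87.4 in Ent, 159, 209.8 and 168 in ET, and 273 and 249 in LT (step 1.43). SA, IBA and Ent overlapped, and both LT libraries stood above all ET libraries. Hspd1 (Itri6, 155128182 to 155159534, minus strand), the mitochondrial chaperonin HSP60, measured 78.1, 94.5 and 68.8 CPM in SA, 77.4, 79.97 and 94.7 in IBA, 82.1, 119.9 and 78.9 in Ent, 214, 205 and 178 in ET, and 212 and 215 in LT (step 1.14), with its highest level outside torpor in Ent replicate 2. Its co-chaperonin Hspe1 lies head to head with it, 1248 nt away between the counted gene bodies, and had a step of 0.06 (a gene chosen after its values were seen). Cct4, a subunit of the cytosolic chaperonin TRiC, had a step of 0.92, and the mitochondrial J-domain protein Dnaja3 was a lower member with a step of -0.84. Among 31 chaperones and heat shock factors with a unit, 27 had a step above 0 (27 to 28 over the scalings), with a median of 0.49. In the unfolded protein and integrated stress response list (19 units), the disulfide isomerase Pdia3 was a higher member (0.96) and the transcription factor Xbp1 a lower one (-1.56).

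RNA-binding proteins followed. Tra2a (Itri2, 81400159 to 81430327, minus strand), a serine- and arginine-rich activator of splicing, measured 118, 102 and 125 CPM in SA, 88.4, 78.9 and 83.6 in IBA, 106, 114 and 123 in Ent, 287, 272 and 248 in ET, and 248 and 214 in LT (step 1.14). IBA was the lowest state and each torpid library exceeded the others by a wide margin. Prpf19, the ubiquitin ligase of the spliceosome's Prp19 complex, had a step of 1.21, and Luc7l, related to a yeast U1 snRNP component, one of 0.84. These were 3 of 47 splicing factors. In the list, torpid libraries lay above all others in 27 of the 47 (against 15.9% of all single-gene units), 38 had a step above 0 (37 to 39 over the scalings) and the median step was 0.40, after a median Ent difference of 0.29. Rbm10, a splicing regulator, was the 1 member among 15 RBM and cold-inducible RNA-binding proteins (0.93). Slbp (Itri14, 67970976 to 67979233, plus strand), which binds the stem-loop that ends histone mRNAs, measured 14.8, 21.0 and 18.3 CPM in SA, 6.96, 8.84 and 7.85 in IBA, 7.67, 10.6 and 10.8 in Ent, 39.9, 26.1 and 24.5 in ET, and 26.9 and 46.3 in LT (step 1.63). SA lay above Ent and IBA, and its Ent difference of -0.29 was at the threshold.

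Gapdh (Itri4, 102563237 to 102579733, minus strand), the glycolytic glyceraldehyde-3-phosphate dehydrogenase, measured 125, 111 and 148 CPM in SA, 71.2, 124 and 107 in IBA, 141, 148 and 86.8 in Ent, 388, 338 and 281 in ET, and 317 and 279.5 in LT (step 1.38). Slc2a1 (Itri11, 58379971 to 58411482, minus strand), the glucose transporter GLUT1, measured 38.4, 56.5 and 61.2 CPM in SA, 27.0, 30.4 and 27.6 in IBA, 44.7, 61.1 and 24.8 in Ent, 202, 66.8 and 85.2 in ET, and 89.2 and 103 in LT (step 1.29). For Gapdh the groups were far apart, whereas for Slc2a1 the lowest torpid library (ET replicate 2) was just above the highest SA library and ET replicate 1 stood far above the other torpid libraries. Phkg2 (Itri9, 125041976 to 125052802, plus strand), the liver catalytic subunit of the kinase that activates glycogen phosphorylase, measured 27.2, 39.0 and 21.4 CPM in SA, 27.0, 24.3 and 21.5 in IBA, 26.0, 35.9 and 23.4 in Ent, 69.0, 60.6 and 53.5 in ET, and 89.0 and 75.3 in LT (step 1.26). Gapdh was the 1 member among 21 genes of gluconeogenesis, glycolysis and glycogen, of which 14 had a step below 0 under every scaling. Ivd (Itri5, 86023714 to 86046727, plus strand), the isovaleryl-CoA dehydrogenase of leucine breakdown, measured 202, 184 and 212 CPM in SA, 92.6, 119.9 and 103 in IBA, 163, 205 and 129.8 in Ent, 366, 398 and 344 in ET, and 387 and 363 in LT (step 1.18), with IBA the lowest state and the 5 torpid libraries close together.

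The largest step of the higher set belonged to Jpt1 (Itri7, 5961608 to 5977183, plus strand), a microtubule-associated protein, which measured 6.29, 10.5 and 6.19 CPM in SA, 6.43, 4.32 and 4.71 in IBA, 5.85, 6.15 and 8.46 in Ent, 34.4, 28.0 and 24.7 in ET, and 56.8 and 47.5 in LT (step 2.28). Both LT libraries stood above all ET libraries. Large steps were also those of G8262, a model without a gene symbol (1.54), Uck2, a kinase of pyrimidine salvage (1.46), and Fam177a1 (1.29). Single members came from lists of cell structure and membranes: Ezr, which links actin to the plasma membrane (1.12), among 22 actin genes, Rab5a, the GTPase of early endosomes (0.95), among 103 of membrane traffic, and Atp6v1b2 of the vacuolar proton pump (0.84) among 34 of autophagy and lysosome. The zinc finger protein Znf672 had a step of 1.05.

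Several lower members serve functions typical of liver. Fabp1 (Itri12, 80113156 to 80119730, minus strand), the liver fatty acid-binding protein, measured 52.3, 272 and 123 CPM in SA, 156, 361 and 249 in IBA, 145, 141 and 166 in Ent, 37.8, 23.0 and 36.7 in ET, and 18.6 and 31.5 in LT (step -2.36). Thrsp (Itri3, 65023196 to 65028422, plus strand), a regulator of fatty acid synthesis, measured 263, 105 and 240.0 CPM in SA, 99.3, 219.6 and 208 in IBA, 307, 177 and 152 in Ent, 47.3, 34.2 and 43.4 in ET, and 48.2 and 38.4 in LT (step -2.24). Both varied several-fold outside torpor, yet all torpid libraries lay below them. Slc10a1 (Itri5, 61216569 to 61236604, plus strand), the sodium-dependent transporter that takes bile acids up from blood, measured 535, 227 and 366 CPM in SA, 379, 309 and 288 in IBA, 344, 294 and 344 in Ent, 85.8, 97.3 and 103 in ET, and 85.5 and 55.7 in LT (step -1.95), with Ent inside the SA and IBA range. They were the 1 member each among 22 genes of fatty acid oxidation, 22 of lipogenesis and cholesterol synthesis, and 13 of bile acid synthesis and transport. Steps lay below 0 in 14 (14 to 15 over the scalings), 16 (16 to 17) and 11 (11 under each scaling) of these lists' genes. The lower solute carriers were Slc10a1, the betaine transporter Slc6a12 (-1.35) and the iron exporter Slc40a1 (-0.81), among 102, and Slc40a1 met the rule under 0 of 4 other scalings.

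Plasma proteins gave 3 lower members of 30 coagulation, complement and acute phase genes. Plg (Itri8, 144519581 to 144556134, minus strand), which encodes plasminogen, measured 844, 700.3 and 791 CPM in SA, 746, 885 and 842 in IBA, 757, 856 and 824 in Ent, 597, 387 and 438 in ET, and 418 and 369.6 in LT (step -0.90). SA, IBA and Ent overlapped, and ET replicate 1 was the highest torpid library. Proc, the anticoagulant protein C, had a step of -0.91, and C8a, a chain of complement C8, one of -1.20. Steps lay below 0 in 29 of the 30 (27 to 29 over the scalings), with a median of -0.75. In the list of urea cycle and amino acid catabolism (33 units), Glul, glutamine synthetase, was the lower member (-0.82) beside Ivd in the higher set. In oxidative phosphorylation (31 units) the lower member was Ndufb9 of complex I (-1.12), although most of that list went the other way. Its steps lay above 0 in 23 of 31 units (21 to 23 over the scalings), with a median of 0.33. Torpid libraries lay above all others in 10 of them (against 15.9% of all single-gene units) and below all others in 1 (against 9.48%).

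Transcription factors of hepatocyte identity and metabolism gave 3 lower members of 31. Hnf4a (Itri5, 180880995 to 180910845, plus strand), a nuclear receptor that maintains the hepatocyte programme, measured 915, 871 and 848 CPM in SA, 766, 879 and 739 in IBA, 943, 763 and 703 in Ent, 506, 366 and 451 in ET, and 425 and 377 in LT (step -0.91). All torpid libraries were close together below a narrow band of SA, IBA and Ent values. Bcl6 (Itri7, 116280811 to 116305798, plus strand), a transcriptional repressor, measured 471, 212 and 671 CPM in SA, 650.4, 488 and 263 in IBA, 296, 408 and 511 in Ent, 90.2, 94.6 and 159.7 in ET, and 107 and 131 in LT (step -1.79), and Nr1i2, the xenobiotic receptor PXR, had a step of -1.09. Of the list, 20 had a step below 0 (19 to 20 over the scalings). Zfp36l1, a protein that binds AU-rich elements and speeds mRNA decay, had a step of -1.93 and was the 1 member among 22 immediate early genes. Its name also placed it among the 101 zinc finger genes, where the lower members proper were Znf689 (-1.50) and ZNF768_containing (-0.98).

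Ddit4 (Itri1, 58152435 to 58155815, minus strand), also called REDD1, an inhibitor of mTORC1, measured 471, 172 and 60.2 CPM in SA, 19.3, 38.7 and 34.2 in IBA, 187, 41.4 and 47.3 in Ent, 11.9, 6.64 and 9.78 in ET, and 13.5 and 3.45 in LT (step -2.97). SA was far above IBA and spread widely, and Ent replicate 1 stood above the other Ent libraries, so the flat entrance is an average of unlike levels. It was the 1 member among 22 genes of insulin, mTOR and AMPK signalling. Cldn1 (Itri7, 114007324 to 114023610, plus strand), a claudin of tight junctions, measured 88.2, 60.3 and 71.6 CPM in SA, 349, 168 and 199.8 in IBA, 194, 91.9 and 94.2 in Ent, 18.1, 18.5 and 32.4 in ET, and 21.6 and 15.8 in LT (step -2.47), with every IBA library above every SA library, Ent replicate 1 inside the IBA range, and the other Ent libraries just above SA. Arrdc4, an arrestin-domain protein grouped with Slc40a1 in the iron, heme and antioxidant list (22 units), had a step of -1.33, and the sorting nexin Snx17 one of -0.82.

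The largest step among all members belonged to G25859 (Itri4, 110390501 to 110401945, plus strand), a model without a gene symbol, which measured 95.9, 57.1 and 74.96 CPM in SA, 77.6, 65.4 and 67.2 in IBA, 68.2, 52.5 and 56.2 in Ent, 7.12, 6.23 and 7.38 in ET, and 4.60 and 2.04 in LT (step -3.29). Its lowest library held 13 counts. Other models without a symbol among the 12 largest were G38772 (-2.87), G33278 (-2.79), G7271 (-2.21) and G17017 (-1.99), with LOC101970734 (-2.62), LOC106145352 (-2.41) and LOC101956130 (-2.11) named by locus only. G7271 (Itri11, 99439408 to 99483312, minus strand) measured 299.5, 204 and 251 CPM in SA, 490.0, 352 and 385 in IBA, 375, 209 and 273 in Ent, 81.7, 90.5 and 84.2 in ET, and 37.7 and 31.1 in LT (step -2.21), with both LT libraries below all ET libraries.

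**Figure D3:**
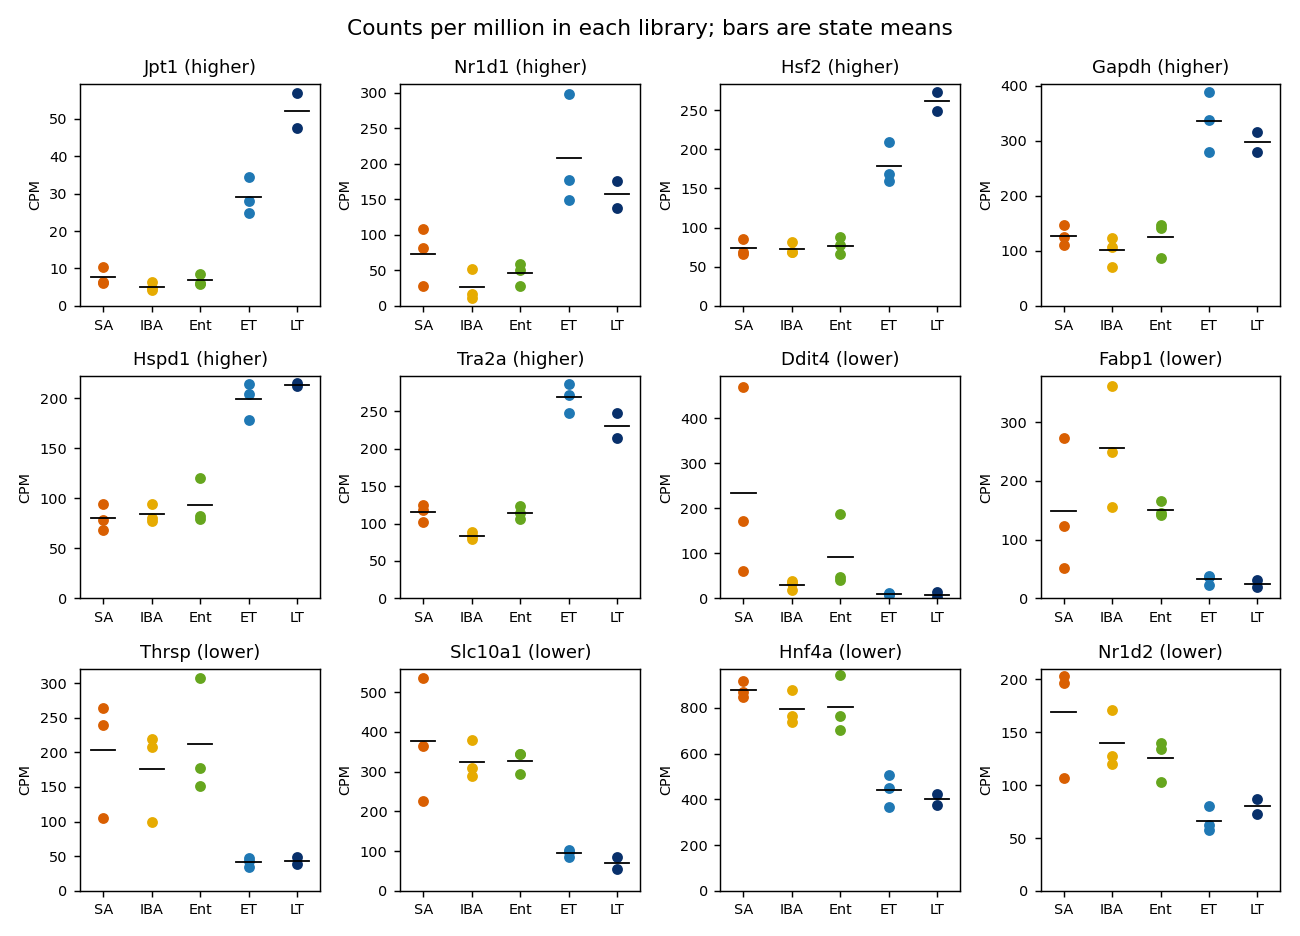
CPM in each of the 14 libraries for 12 members (dots, coloured by state; horizontal bars are state means; vertical axes start at 0 and differ between panels). In the 6 higher members all torpid dots lie above the SA, IBA and Ent dots, and in the 6 lower members below them.

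Gene length played no part in the choice. Median unit length was 26021 nt in the higher set, 15635.5 nt in the lower set and 36217 nt over all single-gene units. Units under 10 kb made up 7 of 79 higher members (8.86%), 22 of 90 lower members (24.4%) and 378 of all 4705 (8.03%). Units of 100 kb or more were 0 of 79, 3 of 90 (3.33%) and 803 of 4705 (17.1%). Models without a gene symbol were 5 higher members (6.33%), 23 lower members (25.6%) and 309 of all units (6.57%). The median of mean counts was 362 in the higher set, 272 in the lower set and 449 over all. These are descriptions, and the units' lengths come from models that the authors drew partly from the same libraries.

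**Figure D4:**
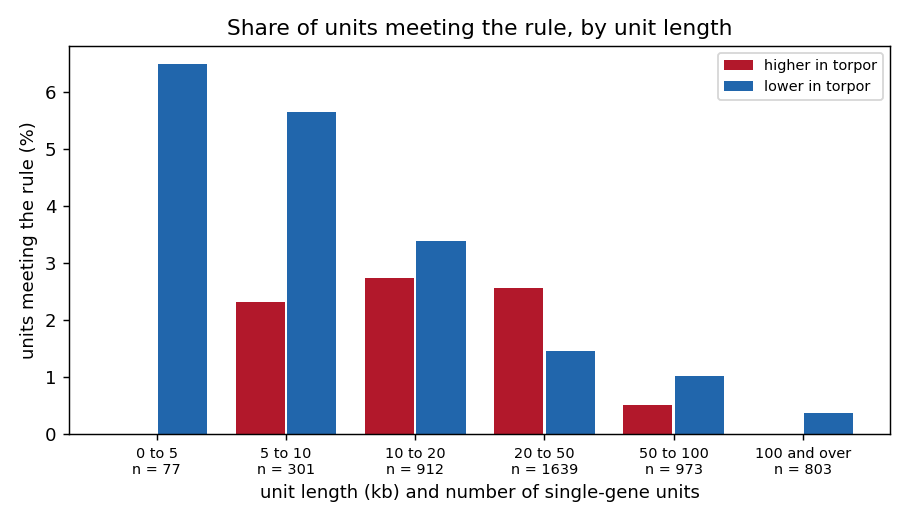
Percentage of single-gene units in each length class (kb) that meet the rule, for the higher (red) and lower (blue) set, with the number of units in the class under each pair of bars. The lower share goes from 6.49% under 5 kb to 0.374% at 100 kb and over, while the higher share peaks at 2.74% between 10 and 20 kb.

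Neighbouring genes were counted because transcription that runs past a gene's end can enter the next one. Genes whose redrawn bodies overlapped had been joined and were not eligible, so the counts cover only members separate from their neighbours. Whether transcription from a neighbour entered a member was not tested. A unit upstream on the same strand within 20 kb was present for 8 higher members (10.1%), 9 lower members (10.0%) and 486 of all units (10.3%). Those upstream units had a median step of -0.04 for higher members, with 3 of 8 above 0, and 0 of them had a step of 0.8 or more in either direction. For lower members the median was -0.27, with 4 of 9 above 0 and 1 of 0.8 or more in each direction. Over all 486 such units the median was 0.10, with 279 above 0, 30 of 0.8 or more upward and 42 downward. A head-to-head neighbour within 5 kb was present for 14 higher (17.7%), 14 lower (15.6%) and 563 of all units (12%). The partner had a step of 0.8 or more the same way in 1 of the 14 higher and 3 of the 14 lower cases. Over all 563 units with such a neighbour, the neighbour's step was 0.8 or more upward in 43 and downward in 47. The same-way partners were, chosen after their values were seen, Mrm3 beside Glod4 (0.93), and LOC106145069 beside Bcl6 (-2.19), G0s2 beside Lamb3 (-3.29) and G11870 beside CUNH19orf12 (-1.16). Members lay within 100 kb of each other in 10 pairs, of which 3 were both higher, 3 both lower and 4 of opposite directions. Gga3 and Jpt1 on Itri7 were both higher, G17017 and Xbp1 on Itri2 both lower, and the higher Phkg2 lay near the lower Znf689 on Itri9.

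SA and IBA, the euthermic states of summer and winter, were compared with edgeR over all units, a contrast that the choice of members did not use directly. At a Benjamini-Hochberg adjusted p of 0.001 edgeR called 1 single-gene unit (0.0213%) and 0 of 79 higher and 0 of 90 lower members. With edgeR at an unadjusted p of 0.05, 20 higher and 19 lower members passed, beside 1103 of all single-gene units (23.4%). DESeq2 at an adjusted p of 0.001 called 1 higher member, Ivd, and 3 lower members, G33278, Cldn1 and Nt5dc3 (the last named after its values were seen), beside 175 units (3.72%). In edgeR at an adjusted p of 0.05, 4 higher and 5 lower members passed, beside 262 units (5.57%). Ivd had an IBA minus SA difference of -0.95 (SE 0.16) on the log2 scale in this fit, with every IBA library below every SA library (edgeR adjusted p = 0.00498). Cldn1 was higher in IBA by 1.68 (SE 0.37), again without overlap (edgeR adjusted p = 0.0196). All 20 higher members that passed the unadjusted threshold were lower in IBA, as were 5 of the 19 lower members, and 564 of the 1103 units. IBA means lay above SA means in 19 of 79 higher members, 58 of 90 lower members and 2542 of 4705 units.

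Early and late torpor were compared in the same fit. In ET against LT edgeR called 0 units (0%) at an adjusted p of 0.001, hence 0 members, beside 6 higher and 15 lower members at an unadjusted p of 0.05 and 436 of all single-gene units (9.27%). DESeq2 at an adjusted p of 0.001 called 1 higher member and 1 lower member, the latter Rpp38, a protein subunit of ribonuclease P, beside 33 units (0.701%). In edgeR at an adjusted p of 0.05, 0 higher and 1 lower member passed, again Rpp38 (named after its values were seen), beside 16 units (0.340%). Rpp38 had an LT minus ET difference of -1.20 (edgeR adjusted p = 0.0458), with both LT libraries below the 3 ET libraries. The median LT minus ET difference was 0.01 in the higher set and -0.23 in the lower set, against -0.01 over all units, and LT lay below ET in 67 of 90 lower members, 37 of 79 higher members and 2476 of 4705 units. Among those past the unadjusted threshold, 14 of 15 lower members were lower in LT, as were 0 of 6 higher members and 286 of 436 units.

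Calls on contrasts that chose the members are given for their background only. Over the 5 states edgeR called 1243 single-gene units (26.4%), with 57 higher and 64 lower members. From Ent to ET it called 53 units as higher (1.13%), 13 of them members, and 55 as lower (1.17%), 15 of them members. From Ent to LT it called 42 as higher (0.893%), 13 of them members, and 70 as lower (1.49%), 19 of them members.

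Within a single season the step could be taken between Ent replicates 1 and 2 and LT replicates 1 and 3. Its median there was 0.99 in the higher and -1.42 in the lower set, and it was 0.8 or more in size in 61 of 79 and 86 of 90 members. The ranges were from 0.57 to 2.92 and from -3.88 to -0.38. These libraries also chose the members, so the values describe the size within a season and do not test it.

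At the thresholds, the higher members with the smallest steps were Kctd9 and Nufip2 (0.81 each), and Fam234a (0.80) and Aldh2 (0.79) lay just outside. Slbp (-0.29) and Rnaseh1 (0.29) were the higher members nearest the entrance threshold, with Pcgf5 and Gtf2h3 (0.30 each) just past it. In the lower set Pigv and Nr1d2 (-0.80 each) stood inside, and Extl1 and Acvr1 (-0.79 each) outside. For the entrance threshold G16771 and Nagk (-0.30 each) stood inside, and Rbp5 and Upb1 (-0.30 each) outside. Among the 12 largest steps of each direction, Slbp, Uck2, Slc2a1, G25859 and LOC101970734 met the rule under 2 of 4 other scalings.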

How the data were processed

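The authors trimmed GRO-seq reads with cutadapt, aligned them to HiC_Itri_2 with BWA, and redrew and merged overlapping gene bodies. They deposited whole-number counts of uniquely aligned reads for every unit, made with featureCounts and without the first 500 nt of each gene. Counts were divided by library totals, and R 4.3.3 with edgeR 4.0.16 (TMM, quasi-likelihood, all 5 states in 1 fit of all 6324 units) and DESeq2 1.42.0 tested SA against IBA and ET against LT at a Benjamini-Hochberg adjusted p of 0.001. Python 3.11.15 and matplotlib 3.10.9 made the descriptions and figures. The methods were tested on simulated data. Members and gene lists were chosen with earlier results of these data known. Genes named are the 12 largest steps per direction, every member on a list, members called in a test, and the 2 units on each side of each threshold, with exceptions marked. Gene symbols follow the deposited annotation. Alternatives covered scaling, added constants, count filters, thresholds, season, replicate blocks and leaving out each library. LT replicate 2 was left out because the authors removed it. Promoter motifs were not analysed here.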

Additional observations from a re-analysis of the deposited data

How the results depend on the processing

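Counts of members moved with the thresholds, the torpid group and single libraries. A step of 1.0 in place of 0.8 left 33 higher and 59 lower units, and a step of 0.6 gave 167 higher. An entrance limit of 0.2 left 48 higher and one of 0.4 gave 119 higher. LT alone as the torpid group gave 153 lower. Ent within 0.3 of SA and of IBA apart, chosen after seeing the data, left 42 higher and 36 lower. Leaving out each library in turn gave 70 to 123 higher units (123 without Ent replicate 2) and 87 to 143 lower units (143 without Ent replicate 3). The cause was not tested. Other scalings, added constants and count filters gave 77 to 84 higher and 85 to 93 lower units, but not the same ones: 43 of 79 higher and 50 of 90 lower members met the rule under all 4 other scalings, and 28 and 34 with each of the 14 libraries left out in turn. The median step ran from 0.94 to 1.03 and from -1.31 to -1.12 with a library left out, and was -1.42 in the lower set within a season.

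SA against IBA gave 175 units and 4 members by DESeq2, 262 units and 9 members at an adjusted p of 0.05, 2 units with uniquely mapped reads as library sizes and 2 with season as a covariate. Units numbered 1 to 3 with a library left out (2 without SA replicate 2, 3 without SA replicate 3), and members 0 to 0. ET against LT gave 33 units and 2 members by DESeq2 and 16 units and 1 member at an adjusted p of 0.05, with 0 to 0 units and members when a library was left out. Replicate numbers do not pair animals. With replicate block in the model, SA against IBA gave 1 unit and 0 members, and ET against LT 0 units and 0 members. Correlations of deviations between libraries of the same number were 0.04, -0.14 and 0.10 for SA and IBA. Depth limits the lowest units: the least covered member library held 13 counts.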

Other observations

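Some gene groups had 0 members but many torpid values to one side of the Ent mean. Of 57 genes of ubiquitin conjugation and removal, 48 had a step above 0 (44 to 49 over the 5 scalings, against 51.3% of all single-gene units), as had 19 of 22 proteasome genes (18 to 19) and 19 of 24 genes of nuclear import and export (19 to 20). Torpid libraries lay above all others in 15, 10 and 11 of these genes, against 15.9% of all single-gene units. In the opposite direction, 37 of 48 genes of the cytochrome P450 and drug conjugation list had a step below 0 (37 to 38), and torpid libraries lay below all others in 13, against 9.48%. The Ent difference of that list had a median of -0.35. These contrasts chose the members and carry no test.

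Joined units, which the choice of members leaves out, met the same conditions in 23 of 1619 cases upward (1.42%) and 38 downward (2.35%). They were named after their values were seen. The unit that joins Snapc1 and Hif1a, the oxygen-sensing transcription factor, had a step of 0.96, and the unit of Atp6v0c and Amdhd2 one of 1.19. The unit of Cdo1, the cysteine dioxygenase, with Atg12 had a step of -1.41, and a pair of models without symbols, G35346 and G35347, one of -3.65. Which gene of a joined unit carries the signal cannot be told apart.

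The non-torpid library closest to the torpid ones was most often an SA or Ent library. It was an SA library for 43 higher and 42 lower members, SA replicate 2 for 27 and 26 of these, an Ent library for 31 and 32, and an IBA library for 5 and 16.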
